A study of Mus musculus with 32 samples.

Results

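The genes of the HoxA, HoxB, HoxC and HoxD clusters were examined in the jaw tissue of mouse embryos. Members were all genes whose symbol is Hoxa, Hoxb, Hoxc or Hoxd followed by a number and which had a probe set annotated with that symbol alone. This gave 48 probe sets and 33 genes, of 18193 genes with a probe set of 1 symbol, and each gene was represented by its probe set with the highest mean over 32 arrays. Of the 33 genes, 15 passed the filter on low values and were tested, among 13705 genes tested in all. The question was whether tissue of the second pharyngeal arch was present in the proximal pieces of the mandible.

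Expression was measured at embryonic day 13.5, on the C57B6 background, with each array labelled by 1 jaw and 1 end. Embryos came from matings of Wnt1cre;Alk5 fl/+ with Alk5 fl/fl mice. Mutants, labelled Alk5 Knockout, lost Alk5 (Tgfbr1, a type I receptor of TGF-beta ligands) in cells with a history of the Wnt1 driver, which is active in the neural crest but not in muscle, epithelium or blood. They were recognised by cleft palate and a calvarial defect, and controls were their littermates, whose Alk5 and Cre alleles the labels do not give. Crossing genotype with the 2 jaws and with the 2 ends of each jaw gave 8 groups of 4 arrays, numbered 1 to 4. The labels do not say that the 4 arrays of a group came from separate embryos or whether pieces were pooled, so p-values measure the spread between arrays, part of which may be technical.

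Hox genes encode homeodomain transcription factors that give cells a position along the head-to-tail axis. In the head, the neural crest of the first arch, which forms the mandible and most of the maxilla, lacks Hox expression. Crest of the second arch expresses Hoxa2, which is required for second-arch skeletal identity, together with Hoxb2, and crest of the more posterior arches also expresses genes of paralogue groups 3 and 4. Hox proteins bind DNA with Pbx, Meis and Pknox cofactors.

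The 300-base promoter windows of the genes that stood for each of the patterns described here, Hoxa2 and Hoxd8, are printed from the RefSeq table (GRCm38.p6, 250 bases before to 50 after the start, read 5′ to 3′ on the gene's strand). Hoxa2 lies at chr6:52164782-52165081 on the minus strand and Hoxd8 at chr2:74704365-74704664 on the plus strand. Capitals mark matches on either strand to TGATNNAT, a Pbx and Hox half-site pair, or to TGACAG, a Meis and Pknox site.
Hoxa2: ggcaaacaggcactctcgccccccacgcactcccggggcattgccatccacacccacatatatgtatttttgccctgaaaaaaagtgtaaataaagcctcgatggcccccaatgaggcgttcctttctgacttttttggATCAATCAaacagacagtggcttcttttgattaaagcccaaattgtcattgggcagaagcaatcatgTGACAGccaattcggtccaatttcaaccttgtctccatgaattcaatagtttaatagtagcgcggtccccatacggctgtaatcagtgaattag
Hoxd8: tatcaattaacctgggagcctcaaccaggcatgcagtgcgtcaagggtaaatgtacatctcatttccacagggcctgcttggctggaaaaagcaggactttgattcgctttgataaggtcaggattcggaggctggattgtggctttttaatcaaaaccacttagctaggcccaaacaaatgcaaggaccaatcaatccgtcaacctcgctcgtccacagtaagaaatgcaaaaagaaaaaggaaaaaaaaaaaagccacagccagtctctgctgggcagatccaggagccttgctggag
The Hoxa2 window held 1 match to each motif, at places that do not overlap, and the Hoxd8 window held 0. The table had windows for 19 of the 33 members. TGATNNAT was found in a window of 3 of these 19 genes (Hoxa2, Hoxb1 and Hoxd11) and in 8.85% of all 32851 windows. TGACAG was found for 2 of the 19 (Hoxa2 and Hoxa3) and in 19.2% of all windows. A match describes letters only and is not evidence of binding.

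Values are log2 expression values made with RMA, and the filter kept probe sets above an array's percentile 40, which lay at 6.66 to 6.86, on at least 4 arrays. Several arrays stood apart. The 8 arrays with number 1 had spike-in control values of 13.77 to 14.02, against 12.56 to 13.35 on the other 24. Control distal mandible array 3 had a 3′ minus 5′ difference of 2.23 for Gapdh (glycolytic enzyme used as an RNA quality control), against -0.18 to 0.12 on the other 31. Mutant distal maxilla array 1 had the lowest SD over probe sets, 2.37 against 2.50 to 2.56. Leaving out the latter 2 arrays, a choice made after the data were seen, kept all 9 calls of Hox genes. The labelled jaws were checked by 5 mandible markers, of which 3 were called: Hand2, Dlx5 and Dlx6, transcription factors of lower-jaw identity, were higher in proximal mandible than in proximal maxilla, by 3.47, 1.62 and 2.55 in controls (SE 0.53, 0.32 and 0.46, limma adjusted p = 0.000113, 0.00207 and 0.000712). Pou3f3, the single maxilla marker, differed by 0.31 in the opposite direction to its label (SE 0.30) and was not called.

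Hoxa2, the second-arch gene, was high on some proximal mandible arrays and on no other array. In the control proximal mandible the values of arrays 1 to 4 were 4.95, 9.34, 8.62 and 8.73. In the mutant proximal mandible they were 10.35, 9.27, 5.57 and 5.13. The other 24 arrays, of distal mandible and of both ends of the maxilla, lay between 4.32 and 5.60. Thus 5 of 8 proximal mandible arrays and 0 of 24 others were above the filter level, and Hoxa2 entered the tests only through those 5 arrays. Arrays 2, 3 and 4 of the control and arrays 1 and 2 of the mutant were high. The remaining proximal mandible arrays, control 1 and mutant 3 and 4, lay within the range of the other 24 arrays.

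**Figure D1:**
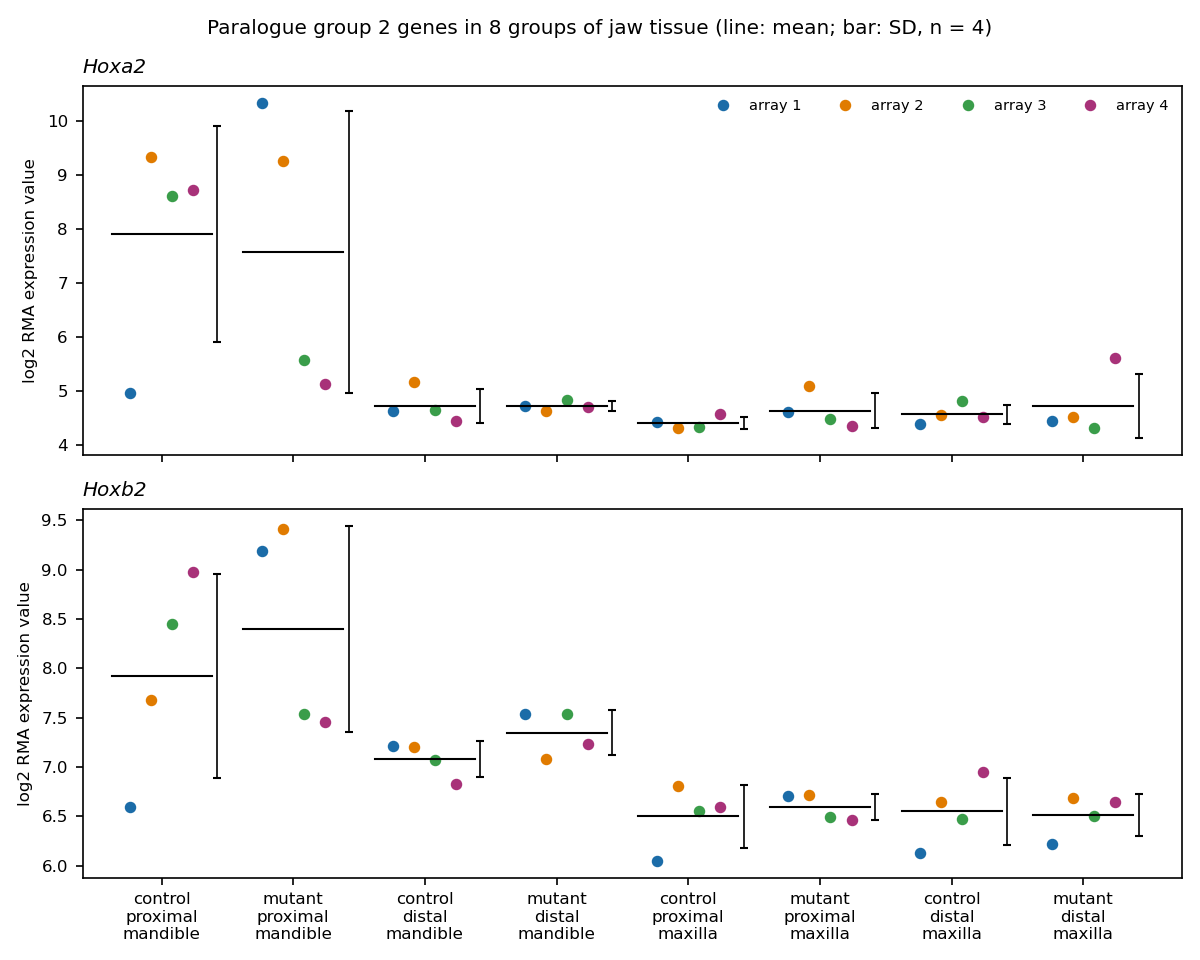
Log2 RMA expression values of Hoxa2 (top) and Hoxb2 (bottom) on each array of the 8 groups, with the array number as colour, the mean as a line and the SD as a bar (n = 4). Hoxa2 exceeds 8 only on 5 proximal mandible arrays, while the other 24 arrays lie at 4.32 to 5.60, and Hoxb2 has its highest values on mutant proximal mandible arrays 1 and 2.

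The comparison of ends asked whether Hox genes distinguished the proximal from the distal mandible. In controls Hoxa2 was at 7.91 ± 2.00 (SD, n = 4) in proximal and 4.72 ± 0.31 in distal mandible, a log2 difference of 3.19 (SE 0.81, limma adjusted p = 0.0184). The groups overlapped, because array 1 of the proximal group lay below the highest distal array. In mutants the means were 7.58 ± 2.62 and 4.72 ± 0.09, a difference of 2.86 (SE 0.81, adjusted p = 0.0336), and the groups did not overlap. Hoxa2 was the only 1 of 15 tested Hox genes called in either genotype, where 4.84% of all genes tested were called in control and 5.03% in mutant mandible. Because Hoxa2 was near background in the distal piece, the log2 difference understates the ratio. The fit took 1 spread of Hoxa2 from all 8 groups, most of them near background. That spread is smaller than in the proximal mandible groups (SD 2.00 and 2.62), so these adjusted p-values may be too small.

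These calls rested on few arrays. The control call was lost without any 1 of the high arrays 2, 3 and 4 of the proximal mandible (differences 2.71, 2.95 and 2.92, adjusted p = 0.0863, 0.0728 and 0.062) and without array 4 of the distal mandible (3.10, adjusted p = 0.0569). Without array 1 of the control proximal mandible the difference was 4.18. The mutant call was lost without proximal array 1 (1.94, adjusted p = 0.215), without proximal array 2 (2.29, adjusted p = 0.158) and without any 1 of the 4 distal arrays (2.83 to 2.90). When limma was fitted on the 2 groups compared alone, the adjusted p was 0.0663 in controls and 0.143 in mutants.

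Between jaws at the proximal end, 5 of 15 Hox genes were higher in control mandible than in control maxilla (Hoxa2, Hoxb2, Hoxc4, Hoxc5 and Hoxd9), where 5.4% of all genes were called. In mutants 2 of 15 were higher (Hoxa2 and Hoxb2), against 3.06% of all genes. In both genotypes 0 were lower. The median difference of the 15 was 0.40 in controls and 0.41 in mutants, and that of all genes tested was 0.01 in each. This comparison shares its proximal mandible arrays with the comparison of ends.

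The counts between proximal jaws changed with the arrays in the fit. Fitted on the 2 groups alone, limma called 1 of 15 in controls and 0 of 15 in mutants. In controls, leaving out proximal mandible array 3 or 4 left 2 and 1 calls, and leaving out maxilla array 2, 3 or 4 left 3 each. Without all arrays of number 1 there were 8, and without those of number 2, 3 or 4 there were 0. In mutants 1 call was left without proximal mandible array 1 or 2, without maxilla array 2, 3 or 4, or without all arrays of number 1 or 3. There were 4 without proximal mandible array 4, and 0 without all arrays of number 2. The share of all genes called in each of these fits is not given here. These changes in count are therefore not shown to be particular to Hox genes.

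**Figure D2:**
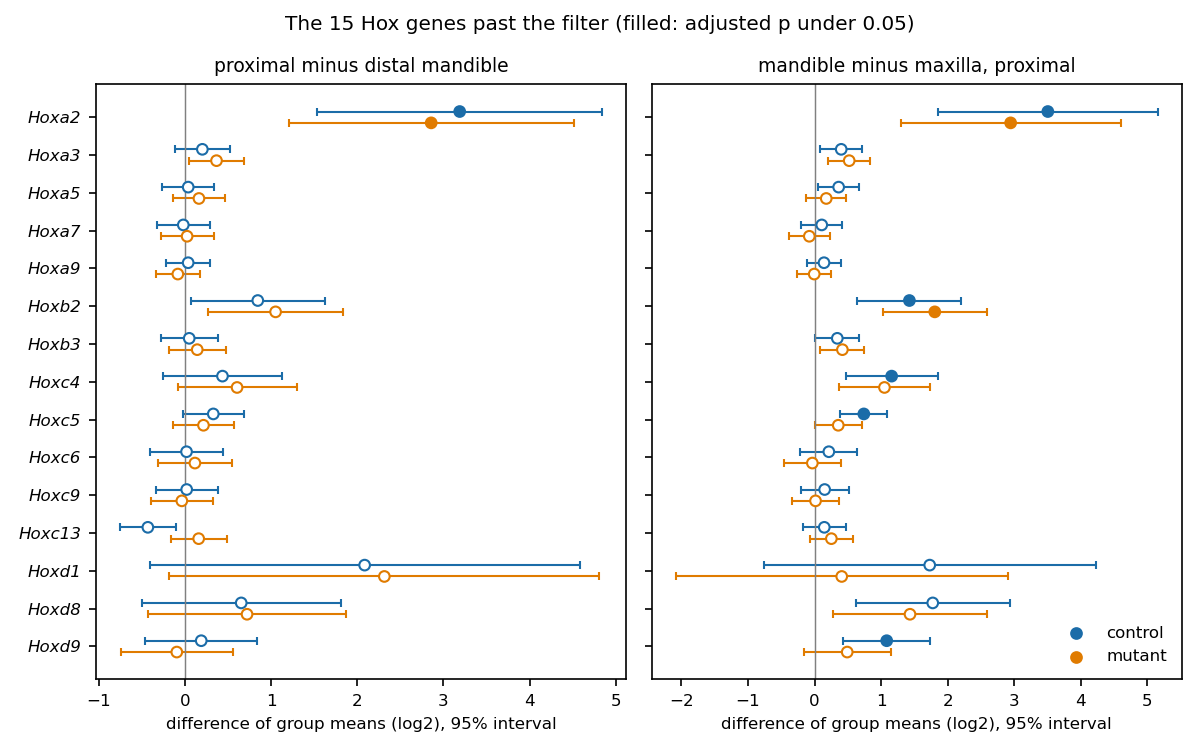
Differences of group means (log2) with 95% intervals for the 15 Hox genes tested, proximal minus distal mandible (left) and mandible minus maxilla at the proximal end (right), in controls and mutants; filled points have an adjusted p below 0.05. On the left Hoxa2 alone is filled, at 3.19 and 2.86, and on the right 5 genes are filled in controls and 2 in mutants.

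For Hoxa2 the difference between proximal jaws was 3.51 in controls (SE 0.81, adjusted p = 0.00726) and 2.95 in mutants (SE 0.81, adjusted p = 0.0404), with no overlap of arrays. The mutant call was lost without proximal mandible array 1 (2.02, adjusted p = 0.224) or array 2 (2.38, adjusted p = 0.195), and without any single array of the mutant proximal maxilla (2.85 to 3.10). Fitted on the 2 groups alone, the adjusted p was 0.0799 in controls and 0.305 in mutants.

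Hoxb2, the other paralogue group 2 gene, followed a similar order of arrays on a higher floor. In the control proximal mandible arrays 1 to 4 were at 6.59, 7.67, 8.45 and 8.98. In the mutant proximal mandible they were at 9.19, 9.41, 7.54 and 7.46. Distal mandible arrays lay at 6.83 to 7.54 and maxilla arrays at 6.05 to 6.95. Every proximal mandible array except control 1 thus exceeded every maxilla array. Between proximal jaws Hoxb2 differed by 1.43 in controls (SE 0.38, adjusted p = 0.0221) and by 1.81 in mutants (SE 0.38, adjusted p = 0.00528). The control call was lost without array 3 or 4 of the proximal mandible (1.25 and 1.07, adjusted p = 0.0926 and 0.116) or array 1 of the proximal maxilla (1.27, adjusted p = 0.0751). In the fit on 2 groups alone the adjusted p was 0.18 in controls and 0.108 in mutants. Between the ends of the mandible Hoxb2 differed by 0.84 in controls and 1.05 in mutants (SE 0.38 each, adjusted p = 0.255 and 0.126), which did not pass.

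Paralogue group 3 genes, which mark crest of the third arch and behind, changed little in the probe sets that stood for them. Hoxa3 ranged from 6.04 to 7.22 over 32 arrays and exceeded the filter level on 5 proximal mandible arrays and no other. Its values were 6.28, 6.87, 6.60 and 6.86 in control and 6.92, 7.22, 6.77 and 6.27 in mutant proximal mandible. The highest value was again on mutant array 2. Between proximal jaws Hoxa3 differed by 0.40 in controls and 0.52 in mutants (SE 0.16 each, adjusted p = 0.168 and 0.0684). Hoxb3 was above the filter on all 32 arrays (7.26 to 8.42), with its highest value on mutant proximal mandible array 1. Its difference between proximal jaws was 0.34 in controls and 0.42 in mutants (SE 0.16 each, adjusted p = 0.302 and 0.223). Hoxd3 was not above the filter on any array and was not tested; it lay at 5.44, 5.91, 6.42 and 6.36 in control proximal mandible and at 4.75 to 6.07 outside the proximal mandible.

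Some other probe sets of the same genes gave a clearer array pattern and some did not, so the choice of probe set bears on these members. Of the 4 Hoxa3 probe sets, another read 7.16 and 7.82 on mutant proximal mandible arrays 1 and 2. It read at most 6.0 on the other 6 proximal mandible arrays, and 4.55 to 5.52 on the other 24. The second Hoxb3 probe set read 6.46 and 6.80 on the same 2 mutant arrays and 3.79 to 5.69 outside the proximal mandible. Both were highest on the same 2 mutant arrays. The remaining Hoxa3 probe sets lacked this pattern and had their highest value outside the proximal mandible. They lay at 4.36 to 5.02 and 5.92 to 6.32 in proximal mandible, and at 3.92 to 5.43 and 5.66 to 6.37 elsewhere. A second probe set of Hoxa5, a gene of the neck and thorax, read 7.80, 7.08, 6.30 and 6.17 in mutant and 5.57, 6.30, 6.62 and 7.07 in control proximal mandible. When each of the 24998 probe sets past the filter was tested on its own, a setting added after the data were seen, this Hoxa5 probe set was higher in proximal than distal mutant mandible by 1.23 (SE 0.29, adjusted p = 0.0117) and in mutant proximal mandible than maxilla by 1.36 (SE 0.29, adjusted p = 0.00741). In that setting Hoxa2 between the proximal jaws of mutants had an adjusted p of 0.0517, and in proximal control jaws Hoxc4 had 0.0509 and Hoxd9 0.0535. The probe set that represented Hoxa5 was flat, at 7.03 to 7.90 over all arrays.

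**Figure D3:**
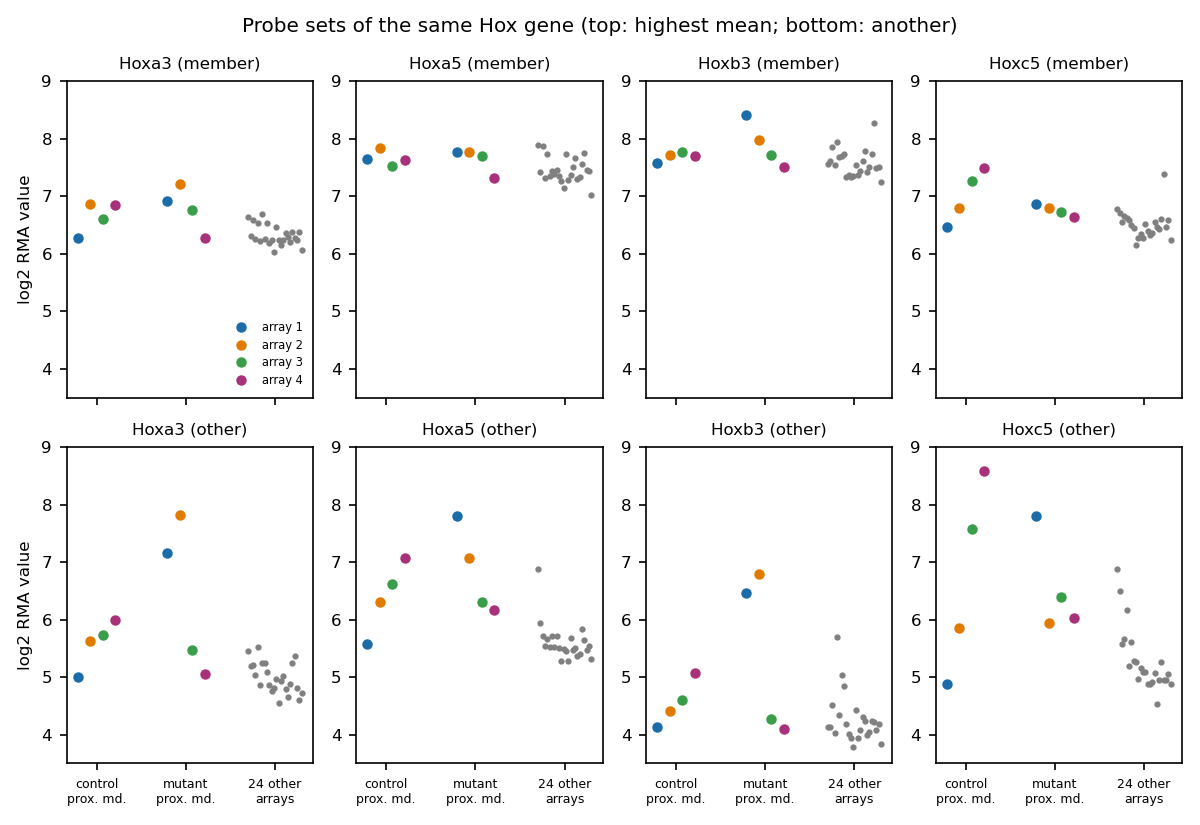
Log2 RMA values of probe sets of Hoxa3, Hoxa5, Hoxb3 and Hoxc5 in control and mutant proximal mandible (md., coloured by array number) and on the 24 other arrays (grey); the top row is the probe set with the highest mean, which stood for the gene, and the bottom row another probe set. In the bottom row Hoxa3 reaches 7.16 and 7.82 on mutant arrays 1 and 2 and Hoxc5 reaches 7.58 and 8.59 on control arrays 3 and 4.

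Hoxc4 and Hoxc5 had their highest value of all 32 arrays in the control proximal mandible. Both belong to the HoxC cluster, whose genes are best known from the trunk and neck. Hoxc4 was at 6.25, 7.04, 8.20 and 8.69 in control and at 8.15, 7.28, 7.43 and 6.64 in mutant proximal mandible. Control arrays 3 and 4 were the highest of all 32, and control array 1 was as low as the maxilla. In the distal mandible Hoxc4 lay at 6.55 to 7.40 and in the maxilla at 6.12 to 7.11, with the maximum of the maxilla on mutant distal array 1. Between proximal jaws of controls it differed by 1.16 (SE 0.34, adjusted p = 0.0396). The call was lost without control proximal mandible array 3 or 4 (0.94 and 0.78, adjusted p = 0.169 and 0.202) and without any 1 of the 4 control proximal maxilla arrays (1.08 to 1.23). In mutants the difference was 1.05 (SE 0.34, adjusted p = 0.0997), and the groups did not overlap. Hoxc4 in mutant minus control proximal mandible was -0.17 (95% interval -0.86 to 0.52, adjusted p = 0.936), so no difference between genotypes was called.

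Hoxc5 was at 6.47, 6.79, 7.27 and 7.49 in control proximal mandible and at 6.86, 6.80, 6.73 and 6.64 in mutant proximal mandible. Its difference between proximal jaws was 0.74 in controls (SE 0.17, adjusted p = 0.00822) and 0.36 in mutants (SE 0.17, adjusted p = 0.446). Control arrays did not overlap between the jaws. The control call ended without proximal mandible array 4 (0.58, adjusted p = 0.0504). A second Hoxc5 probe set varied more: it read 4.89, 5.85, 7.58 and 8.59 in control and 7.80, 5.94, 6.39 and 6.03 in mutant proximal mandible. It gave a control difference of 1.61 (SE 0.49, adjusted p = 0.0688), which did not pass in the fit of single probe sets. On the first probe set control proximal mandible array 4 was the highest of the 32, followed by mutant distal maxilla array 1 (7.39) and control array 3.

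Hoxd8 and Hoxd9, neighbours in the HoxD cluster that pattern the trunk and limb, were above the filter on nearly all arrays (31 of 32 each). Hoxd8 read 8.64, 9.95, 11.03 and 10.88 in control proximal mandible and 10.46, 8.86, 9.21 and 8.90 in mutant proximal mandible. The control distal mandible had 10.68 and 10.32 on arrays 1 and 2 but 8.49 and 8.40 on arrays 3 and 4. In controls the array numbers that were low at the proximal end were thus the high ones at the distal end. Hoxd9 had the same order, with 7.25, 7.99, 9.07 and 8.79 proximally and 8.98, 8.21, 7.63 and 7.52 distally in controls. The labels do not link pieces by number, and numbers were not taken to pair arrays between the ends of the control mandible. The maxilla lay at 6.56 to 9.41 for Hoxd8 and at 6.63 to 7.72 for Hoxd9.

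Between proximal jaws of controls Hoxd9 differed by 1.08 (SE 0.32, adjusted p = 0.0414). That call was lost without array 2, 3 or 4 of the control proximal mandible (1.18, 0.82 and 0.91, adjusted p = 0.0509, 0.203 and 0.147), without array 2, 3 or 4 of the control proximal maxilla (0.99 to 1.08), and with the replicate block within genotype (adjusted p = 0.0523). In mutants Hoxd9 differed by 0.49 (SE 0.32, adjusted p = 0.722). Hoxd8 differed by 1.78 in controls (SE 0.56, adjusted p = 0.064) and by 1.43 in mutants (SE 0.56, adjusted p = 0.243), neither of which passed. Its second probe set differed by 1.73 in controls (SE 0.50, adjusted p = 0.0475) and passed in the fit of single probe sets.

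Hoxd1, which in the mouse is expressed in a class of sensory neurons, varied most between arrays of 1 group, with an SD of up to 2.99 (control proximal maxilla). In the control proximal mandible its values were 7.31, 11.01, 11.37 and 11.20, and in the mutant proximal mandible 9.25, 8.04, 8.83 and 7.93. The control distal mandible read 9.47, 9.40, 7.40 and 6.29, and the mutant distal mandible 7.63, 5.07, 6.49 and 5.60. In the proximal maxilla the values were 8.63, 4.31, 9.74 and 11.29 in controls and 8.59, 5.73, 9.53 and 8.56 in mutants. Array 2 was thus the lowest of the proximal maxilla in both genotypes. The control distal maxilla read 6.35, 4.53, 6.86 and 10.60, whereas all 4 mutant arrays there were low, at 4.32 to 4.87. Hoxd1 therefore differed from Hoxa2 in being high in maxilla as well as mandible.

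None of the 15 comparisons called Hoxd1. The ends of the mutant maxilla did not overlap (difference 3.45, SE 1.22, adjusted p = 0.76), nor did those of the mutant mandible (2.31, SE 1.22, adjusted p = 0.4). Mutant minus control was -2.43 in the distal maxilla (95% interval -4.93 to 0.06, adjusted p = 0.405) and -1.71 in the proximal mandible (95% interval -4.21 to 0.78, adjusted p = 0.66). Neuron markers moved with jaw: the mean of the 9 tested of 10 lay at 9.30 to 12.47 in proximal maxilla and at 7.62 to 10.51 in proximal mandible. In the mutant distal maxilla, where Hoxd1 was low on all arrays, that mean was 9.67 to 10.68. The 10 genes outside the clusters most like Hoxd1 over the 32 arrays, ranked after its values were seen, began with Vgll3, Dnm3, S1pr3, Irx2 and Pax1. Their Pearson r was 0.82 to 0.74, and none of the 10 was a listed neuron marker. The part of neurons or of any other tissue in the Hoxd1 values was not tested further.

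**Figure D4:**
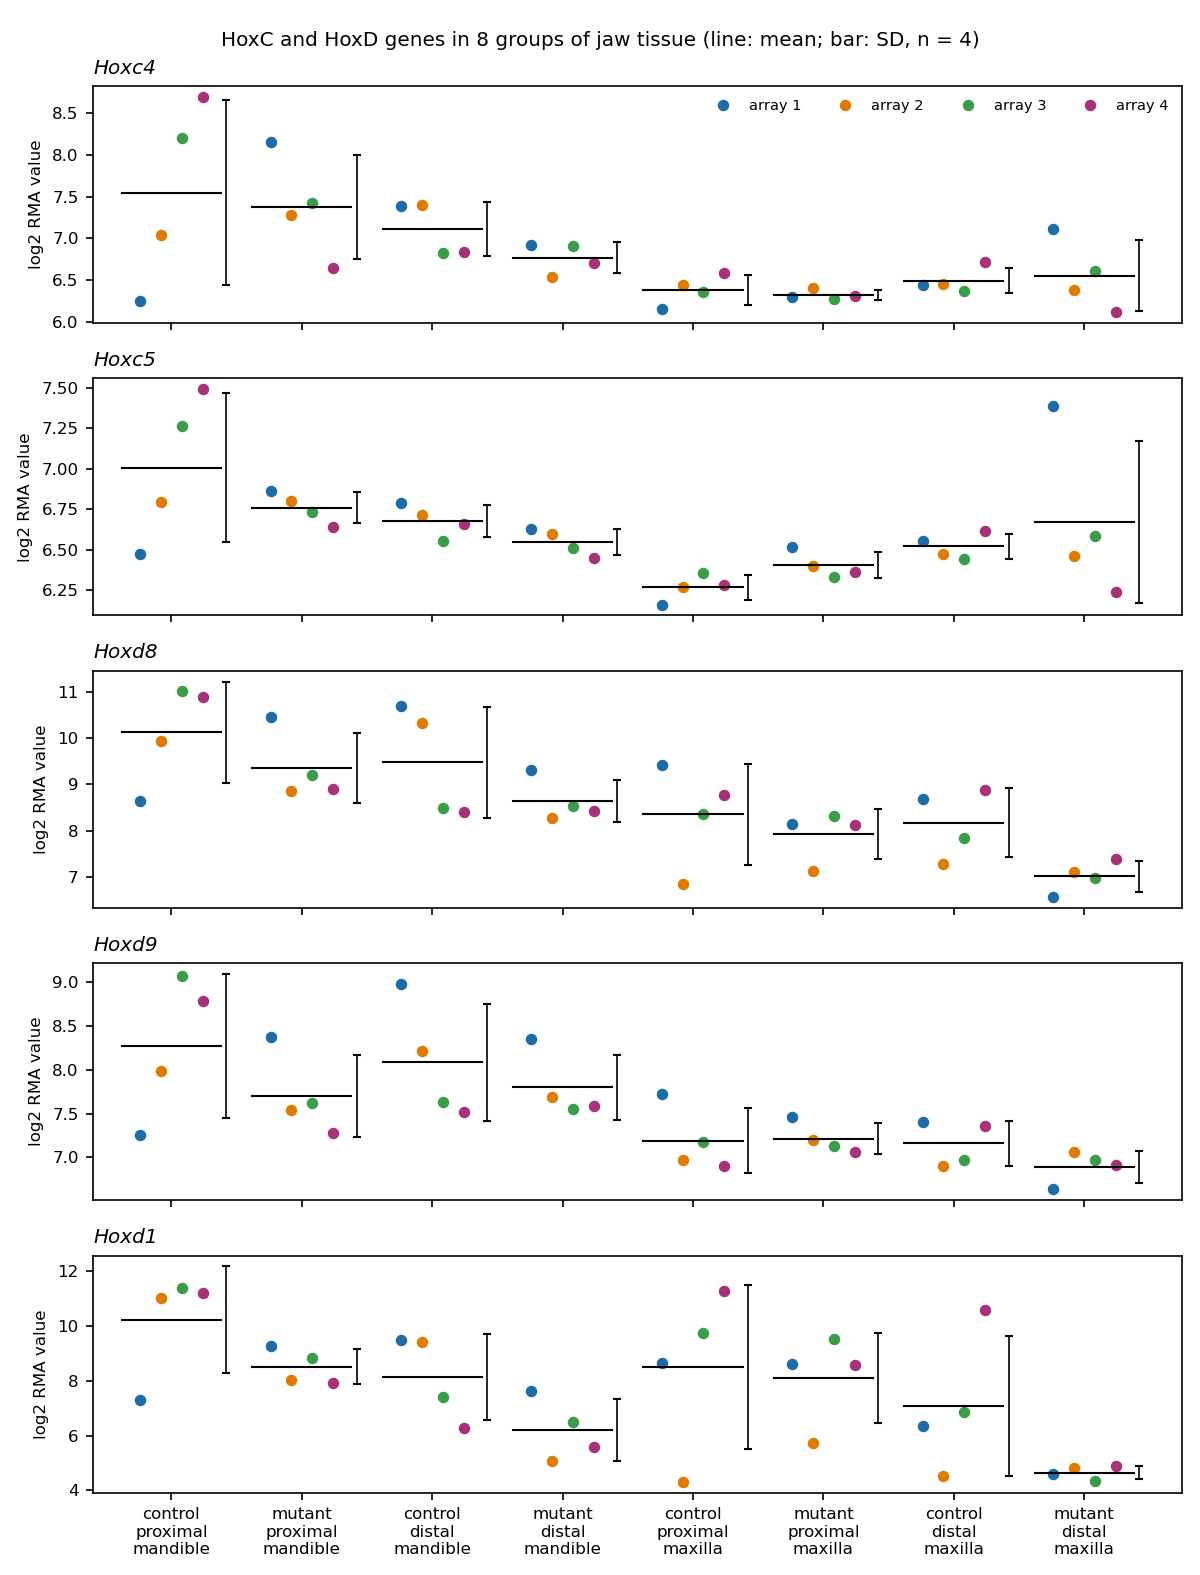
Log2 RMA expression values of Hoxc4, Hoxc5, Hoxd8, Hoxd9 and Hoxd1 on each array of the 8 groups, with the array number as colour, the mean as a line and the SD as a bar (n = 4). Control proximal mandible arrays 3 and 4 are the highest of the 32 for Hoxc4 and Hoxd8; a distal array comes between them for Hoxc5 (7.39, mutant maxilla) and Hoxd9 (8.98, control mandible), and Hoxd1 is at 4.32 to 4.87 on all mutant distal maxilla arrays.

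The remaining tested members were Hoxa5, Hoxa7, Hoxa9, Hoxc6, Hoxc9 and Hoxc13, of the trunk groups of the clusters. None was called in any comparison. Hoxa7 (7.31 to 8.34), Hoxa9 (7.46 to 8.32) and Hoxc9 (7.23 to 8.47) were above the filter on all 32 arrays. These genes moved by at most 1.25 over all arrays, and each had its maximum on mutant distal maxilla array 1. A second Hoxa9 probe set lay at 4.53 to 5.13 and was above the filter on no array. Whether such flat signals reflect expression was not tested. Hoxc13, a gene of hair and nail, was 0.43 lower in proximal than in distal control mandible (SE 0.16, adjusted p = 0.135, groups not overlapping), which did not pass.

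Of the 18 members not tested, 16 were above the filter level on no array. Hoxb4 was above it on 1, mutant proximal mandible array 2 (7.70, against 6.02 to 6.85 outside the proximal mandible). Hoxd13 was above it on mutant distal maxilla array 1 (7.61). Hoxa4, which stayed below the filter level, had its 2 highest values, 5.10 and 5.38, on mutant proximal mandible arrays 1 and 2. With no filter, where 18193 genes including all 33 members were tested, the same 9 calls were made and no untested member was called.

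Across the 33 members the place of the highest array differed with the paralogue group. Of the 10 members of groups 1 to 4, 9 had their highest value on a proximal mandible array, the exception being Hoxb1. Of the 9 members of groups 5 to 8 it was 2, and of the 14 members of groups 9 to 13 also 2. All 10 members of groups 1 to 4 varied by over 1 unit over the 32 arrays. So did 4 of 9 in groups 5 to 8 and 8 of 14 in groups 9 to 13, and the share of all genes was not counted. Hoxa4, Hoxb1 and Hoxd3 were above the filter on no array, so their values are readings near background. Over all 18193 genes 18.2% had their highest value on 1 of the 8 proximal mandible arrays. A single array, mutant distal maxilla 1, held the maximum of 15 of the 33 members, and it is the array with the lowest SD. The share of all genes with their maximum on that array was not counted, so this is not shown to be particular to Hox genes. These counts are descriptions, with no test.

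**Figure D5:**
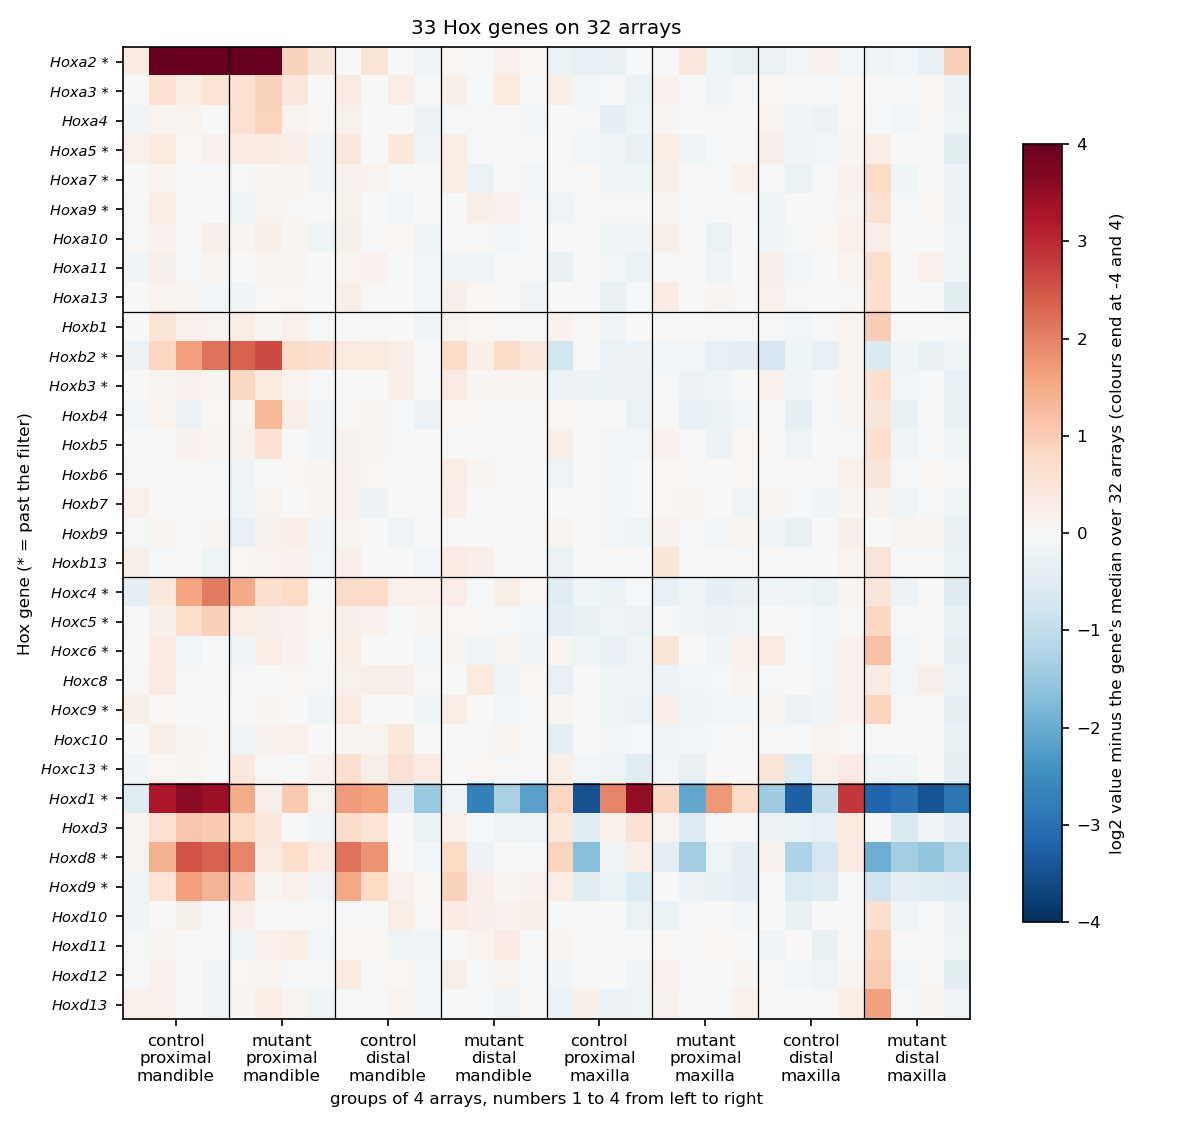
Log2 RMA value of each of the 33 Hox genes on each of the 32 arrays, minus the median of that gene over all arrays, ordered by cluster and paralogue group; stars mark the 15 genes tested, and colours end at -4 and 4. Hoxa2 is raised on 5 proximal mandible arrays and on no other. Hoxb2, Hoxc4, Hoxd1, Hoxd8 and Hoxd9 have their highest value on a proximal mandible array. Hoxd1, Hoxd8 and Hoxd9 also reach 11.29, 10.68 and 8.98 outside the proximal mandible. Mutant distal maxilla array 1 is the highest for 15 genes.

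The maxilla and the genotype comparisons held no called Hox gene. Between the ends of the maxilla limma called 0 of 15 in each genotype, where 0% of all genes were called. At an unadjusted p below 0.05 there were 0 and 1 of 15 in controls and mutants, and 405 and 555 of all 13705 genes. Between jaws at the distal end it called 0 of 15 in controls (1.47% of all genes) and 0 of 15 in mutants (13.7%). Unadjusted, 3 of 15 and 1385 of all 13705 genes were below 0.05 in controls, and 3 of 15 and 3770 in mutants. In distal mutant jaws Hoxd8 differed by 1.63 (SE 0.56, adjusted p = 0.0531) and Hoxd9 by 0.91 (SE 0.32, adjusted p = 0.0556), both higher in mandible on every array.

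For mutant against control tissue limma called 0 of 15 Hox genes in the proximal mandible (1.26% of all genes, 0 of 15 unadjusted) and 0 of 15 in the distal mandible (1.91%, 1 of 15 unadjusted). It called 0 of 15 in the proximal maxilla (0.0657%, 0 of 15 unadjusted) and 0 of 15 in the distal maxilla (0.788%, 1 of 15 unadjusted). Of all 13705 genes, 1628 were below an unadjusted p of 0.05 in the proximal and 2193 in the distal mandible. In the maxilla 672 were below it proximally and 1773 distally. The interval for Hoxa2 in the proximal mandible was wide, with a difference of -0.34 and a 95% interval of -1.99 to 1.32. For Hoxb2 there it was 0.47, with an interval of -0.31 to 1.25. A similar level in both genotypes was therefore not shown.

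The test of the end difference in mandible against that in maxilla called 0 of 15 in controls (0.306% of all genes, 2 of 15 unadjusted) and 0 of 15 in mutants (1.74%, 1 of 15 unadjusted). Of all 13705 genes, 919 in controls and 1385 in mutants were below an unadjusted p of 0.05 for this interaction. For Hoxa2 this interaction was 3.35 in controls (SE 1.14, adjusted p = 0.355) and 2.95 in mutants (SE 1.14, adjusted p = 0.291). The end difference in mutant mandible minus that in control mandible called 0 of 15 (0.0219%, 1 of 15 unadjusted), with Hoxa2 at -0.33 (SE 1.14, adjusted p = 0.999). Unadjusted, 581 of all 13705 genes were below 0.05 there. Restriction of the Hoxa2 difference to the mandible was thus seen in the arrays but did not pass the test of the difference itself.

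Partners and controllers of the Hox genes were read from lists. Of 9 Hox cofactors 8 were tested, and 2 rose from distal to proximal mandible in controls and 2 in mutants, with 0 falling, where 4.84% and 5.03% of all genes were called. Meis1, which encodes a homeodomain partner of Hox and Pbx proteins, rose by 1.18 in controls (SE 0.20, adjusted p = 0.000963) and by 1.94 in mutants (SE 0.20, adjusted p = 3.33e-07). Pknox2, of the same homeodomain class, rose by 1.40 in controls (SE 0.26, adjusted p = 0.00167) and by 1.03 in mutants (SE 0.26, adjusted p = 0.0154). Between proximal jaws 0 of 8 cofactors were called in controls (5.4% of all genes), while 2 of 8, Meis1 (1.17) and Pbx3 (0.76), were higher in mandible in mutants (3.06% of all genes). Between distal jaws cofactors were lower in mandible, Pknox2 alone of the 8 in controls (-1.09, adjusted p = 0.0232), where 1.47% of all genes were called. In mutants 3 of 8 were lower, Pbx4 (-0.44), Meis1 (-0.73) and Pknox2 (-1.10), against 13.7% of all genes. Of the 14 tested of 18 Hox cluster regulators, such as Polycomb and retinoic acid receptor genes, 0 were called between ends of the mandible or between proximal jaws. The same held for the 12 tested of 23 neighbours and noncoding genes of the clusters.

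The genes Six2, Alx4 and Pitx1, which Hoxa2 represses in the second arch, were all tested. Six2, a mesenchymal homeobox gene, rose by 1.02 from distal to proximal mandible in controls (SE 0.23, adjusted p = 0.00911). Alx4, a homeobox gene of frontonasal and jaw mesenchyme, fell by 1.26 from distal to proximal mandible in mutants (SE 0.28, adjusted p = 0.00682). Pitx1, a homeobox gene of the first arch and lower jaw, was higher in proximal mandible than maxilla by 2.56 in controls and 2.12 in mutants (adjusted p = 4.15e-06 and 6.35e-05). In each comparison that called Hoxa2, 1 of the 3 was called. The called gene was higher in proximal mandible between control ends and between proximal jaws of both genotypes, and lower between mutant ends. Between distal jaws, where Hoxa2 was not called, 1 was higher and 1 lower in mandible in each genotype. The genes quoted come from different comparisons, so no movement of the list with Hoxa2 was shown.

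Markers of other cell types also differed between the pieces that differed in Hox genes. Skeletal muscle genes, 11 tested of 12, had a mean of 10.07 to 11.03 in proximal mandible, 7.41 to 10.18 in distal mandible and 6.81 to 10.10 in maxilla. In controls 3 of 11 rose from distal to proximal mandible (Myod1, Acta1 and Myh8), where 4.84% of all genes were called. In proximal mandible the mean on arrays 1 to 4 was 10.77, 10.17, 10.79 and 10.69 in controls and 11.03, 10.93, 10.16 and 10.07 in mutants. Of the arrays low in Hoxa2, mutant arrays 3 and 4 had the lowest muscle means of the 8, and control array 1 had the fourth highest. All 6 macrophage markers rose from distal to proximal mandible in mutants, where 5.03% of all genes were called, and 1 of 6 did in controls. Of the 9 neuron markers, Nefl and Nefm rose from distal to proximal mandible in both genotypes. In mutants 2 of 4 Schwann and glia markers (Sox10 and Fabp7) and 2 of 6 cartilage markers (Sox9 and Col9a1) also rose, and in controls 2 of 6 epithelial markers (Epcam and Cdh1) fell. Pharyngeal endoderm markers, 2 tested of 6, had 0 called between the ends of the mandible.

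Between proximal jaws, where 5.4% of all genes were called in controls and 3.06% in mutants, muscle markers were higher in mandible for 6 of 11 in controls and 2 of 11 in mutants (Myod1 and Lbx1). Brain markers, 3 tested of 5, were lower in mandible for 2 of 3 in each genotype. Otx2, a homeobox gene of forebrain and midbrain, differed by -4.60 in controls and -3.94 in mutants, and Six3, of forebrain and eye, by -2.06 and -2.01. The mean of the brain list was 6.24 to 6.57 in proximal mandible, 6.22 to 6.48 in distal mandible and 6.97 to 9.42 in maxilla, so that mandible and maxilla did not overlap. Neuron markers were lower in mandible for 4 of 9 in each genotype (Tubb3, Stmn2, Elavl3 and Elavl4 in both). Epithelial markers were lower for 2 of 6 in controls (Epcam and Krt8) and 1 of 6 in mutants (Epcam). The part of these tissues in the Hox differences was not tested. In bulk pieces a smaller number of expressing cells and less RNA per cell cannot be told apart.

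Genes outside the clusters whose values over the 32 arrays were most like Hoxa2 had Pearson r of 0.77 to 0.86. The r ranks likeness only, since it is set by the 5 high arrays. The 10 were 3110099E03Rik, Gm15050, Tcerg1l, Tmem88b, Igfbp1, Ms4a4d, Gata6, Smyd1, Tcf21 and Alpk3. The closest, 3110099E03Rik, lay at 5.99 to 9.36 in proximal mandible and at 4.96 to 5.71 on the other 24 arrays, with no overlap. Tmem88b (6.580 to 7.662 against 6.034 to 6.576) and Alpk3 (8.13 to 8.59 against 7.53 to 8.09) did not overlap either, by small margins. The rest of the 10 overlapped. Tcf21, a transcription factor gene of facial muscle and mesenchyme, lay at 6.65 to 10.31 and 4.92 to 7.72, and Gata6, a zinc finger factor gene of endoderm and heart, at 7.44 to 9.37 and 6.61 to 8.76.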

How the data were processed

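The deposited table holds log2 signals of every probe set on every array, which the authors made with RMA, per the submitters' processing notes; the version is not given in the sources used here. RMA draws arrays to 1 distribution and compresses differences near background. Of 45101 probe sets, 34945 were annotated with a single gene. Probe sets above the array's percentile 40 on at least 4 of 32 arrays were kept and the one with the highest mean stood for its gene (13705 genes). A model of 8 group means was fitted with limma 3.58.1 in R 4.3.3 (24 residual degrees of freedom), with Benjamini-Hochberg adjustment within each of 15 comparisons and a threshold of 0.05. On simulated data it recovered 188 of 200 changed genes for proximal against distal control mandible (5000 genes). Recovery of changes in members with a spread as wide as that of Hoxa2 or Hoxd1 was not tested. Members and lists were chosen with earlier results of these data known. Full values were given for members past the test, for paralogue groups 2 and 3 always, and up to 4 genes per list; likeness took the 10 highest r, and genes named outside this rule were chosen after their values were seen. Equal numbers were taken to pair arrays where every pair's deviations correlated above 0.1, which held in 2 of 12 comparisons (proximal against distal mutant mandible, and mandible against maxilla in proximal mutants; range over all -0.58 to 0.72); the pairing comes from the data, not a label. Alternatives were a replicate block, other filters, probe sets, scaling and samples, and leaving out arrays.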

Additional observations from a re-analysis of the deposited data

Results flagged for a closer look

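A single array lay far from the other 3 of its group in 3 of 56 member groups checked; chance alone marks about 1 in 20 groups. Hoxa2 read 4.95 on control proximal mandible array 1, where the other 3 arrays read 8.62 to 9.34. Hoxa2 read 5.60 on mutant distal maxilla array 4, where the others read 4.32 to 4.52, and this value was still below the filter level. Hoxb3 read 7.95 on mutant distal mandible array 1, where the others read 7.69 to 7.73. No difference of effects between genotypes or between jaws passed its test for a Hox gene.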

How the results depend on the processing

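The 15 counts of called Hox genes gave 350 values under other settings, of which 298 kept their side of the threshold and stayed within 1.5 times the reported count. For mandible minus maxilla in distal mutants, reported as 0, the replicate block gave 2 calls, number 1 as a covariate 2, repeated quantile normalization 1, the fit on only the groups compared 3 and an intensity trend 1. The replicate block moved no other count by over 1.5 times, including the 2 comparisons in which numbers were taken to pair arrays; within genotype it left 4 of the 5 calls between proximal control jaws, Hoxd9 losing its call (adjusted p = 0.0523). With only the groups compared, proximal minus distal control mandible gave 0, and mandible minus maxilla gave 1 in proximal controls and 0 in proximal mutants. For proximal minus distal mutant mandible, the mean over probe sets and the probe set with the largest variance (chosen after the data were seen) each gave 2. Leaving out single arrays or all arrays of 1 number gave 0 to 4 calls for proximal minus distal control mandible, 0 to 3 in mutant mandible, 0 to 8 for mandible minus maxilla in proximal controls, 0 to 4 in proximal mutants and 0 to 1 in distal mutants. It gave 0 to 1 for mutant minus control in proximal mandible and in distal maxilla, and 0 to 2 for the end difference in control mandible minus that in maxilla. The highest of these, 4 and 8 in control mandible, came without all arrays of number 1. The share of all genes called under these settings is not given here, so the changes are not shown to be particular to Hox genes. The 9 called gene and comparison pairs gave 198 values, of which 129 passed the threshold, 69 did not and 0 reversed. Of the 9 pairs, 0 passed under every setting. The causes were not tested. No file of scanner signals was used, so signal over background limits what low members such as Hoxa2 outside the proximal mandible can show.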
